A study of Mus musculus with 24 samples.

Results

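The mitosis and spindle genes are 42 genes whose products drive cells through mitosis, build the spindle, attach and separate chromosomes or divide the cell. They were chosen by symbol, with no measured value in the rule, but with earlier results of these data known. All 42 were among the 15055 genes of the deposited table. No filter on low values was applied. The members' values ran from 69 for Cdc25c in 1 library to 7112 for Mki67 in another, so none was near 0.

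The study compared regrowth after amputation of the hind limb digit tip of C57BL/6 mice, an inbred laboratory strain, aged 10 to 12 weeks. Digits had been cut at a distal or a proximal level, and tissue was taken 12, 14 or 21 days later, which gave 6 groups of 4 libraries. Each library is total RNA, depleted of ribosomal RNA, from a whole tip with its bone, cartilage, marrow, dermis and epidermis. In the mouse, a tip cut distally is known to regrow its bone and nail, whereas a cut made nearer the body is known to heal without regrowth. All 6 groups were amputated, and no unamputated digit was analysed here. No label ties a library to an animal of its own, so each p-value here reflects how far the libraries of a group scatter, and part of that scatter may be technical. In whole tissue, fewer dividing cells and less of these transcripts per cell cannot be told apart.

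A cell enters mitosis when CDK1 binds cyclin B and is switched on. Polo-like and Aurora kinases then mature the centrosomes and set up the spindle, and the checkpoint holds the cell until each kinetochore is attached. CDC20 then activates the anaphase promoting complex, which destroys securin and cyclin B, so that separase can cut the rings that hold sister chromatids together. The central spindle and a contractile ring then split the cell. Most of these genes are transcribed in late interphase and mitosis, and their transcripts serve as a measure of cycling cells in a tissue.

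Promoters of such genes are known for the cell cycle genes homology region, or CHR, which is bound by the MuvB complexes DREAM and MYBL2-MuvB, and for CCAAT boxes, which are bound by NF-Y. RefSeq start sites on build GRCm38.p6, the assembly that mm10 also names, gave 36 windows for 34 of the 42 genes, each from 250 bases before to 50 after the start. The letters TTTGAA or TTCGAA, on either strand, were taken as a CHR and the letters CCAAT, on either strand, as a CCAAT box. Of the members' windows, 80.6% held a CHR, against 13.7% of 13690 windows of the other genes of the table and 19.2% of all 32851 windows. A CCAAT box was in 80.6% of the members' windows, 36.7% of the other genes' windows and 37.4% of all windows. Both stood in 72.2% of the members' windows, 5.44% of the other genes' and 7.52% of all. The windows were alike in base composition, with a mean GC content of 58.5% for the members and 60.3% for the other genes of the table. The letters TTTGGCGC or TTTCCCGC, a strict form of the E2F site, were in 0 of 36 windows of the members, 2.7% of those of the other genes and 1.56% of all. A match is a description of letters, not a bound site.

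The bases just before the start are shown for 8 members on which the results below turn, 5′ to 3′ on the strand of the gene, with CHR and CCAAT box letters of either strand in capitals. They show how the matches stand together: in Mki67 and Top2a, the proliferation marker and the topoisomerase, in Cdk1, Ccnb2 and Plk1, which start mitosis, and in Cdc20, Ube2c and Espl1, which end it.
Mki67: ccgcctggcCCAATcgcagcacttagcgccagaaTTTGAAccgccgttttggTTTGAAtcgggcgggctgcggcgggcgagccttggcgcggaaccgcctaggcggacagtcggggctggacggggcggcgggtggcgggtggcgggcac
Top2a: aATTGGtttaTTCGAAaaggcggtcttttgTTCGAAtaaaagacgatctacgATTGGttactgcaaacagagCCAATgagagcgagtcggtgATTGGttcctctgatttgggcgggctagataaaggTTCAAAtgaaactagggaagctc
Cdk1: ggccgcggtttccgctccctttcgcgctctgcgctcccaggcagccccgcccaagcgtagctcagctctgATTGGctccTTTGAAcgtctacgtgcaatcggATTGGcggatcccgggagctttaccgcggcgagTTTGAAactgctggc
Ccnb2: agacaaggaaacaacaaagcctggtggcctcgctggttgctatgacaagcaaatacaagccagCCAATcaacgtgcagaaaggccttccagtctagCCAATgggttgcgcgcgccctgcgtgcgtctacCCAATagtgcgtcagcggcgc
Plk1: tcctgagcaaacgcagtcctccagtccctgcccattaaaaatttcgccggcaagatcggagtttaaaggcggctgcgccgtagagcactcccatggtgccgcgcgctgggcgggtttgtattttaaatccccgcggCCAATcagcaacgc
Cdc20: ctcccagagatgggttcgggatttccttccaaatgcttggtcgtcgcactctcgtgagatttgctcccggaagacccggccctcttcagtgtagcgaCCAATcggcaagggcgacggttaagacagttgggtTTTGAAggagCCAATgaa
Ube2c: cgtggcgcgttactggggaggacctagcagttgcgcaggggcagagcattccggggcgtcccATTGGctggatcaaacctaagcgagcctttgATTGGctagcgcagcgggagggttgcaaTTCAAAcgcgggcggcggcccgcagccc
Espl1: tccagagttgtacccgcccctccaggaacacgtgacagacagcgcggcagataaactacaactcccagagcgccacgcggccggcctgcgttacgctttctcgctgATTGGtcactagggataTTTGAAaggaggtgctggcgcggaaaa
They lie upstream of the RefSeq start, for Mki67 at chr7:135716380-135716529, Top2a at chr11:99024190-99024339, Cdk1 at chr10:69352913-69353062, Ccnb2 at chr9:70421555-70421704 and Cdc20 at chr4:118437344-118437493 on the minus strand. On the plus strand lie those of Plk1 at chr7:122159285-122159434, Ube2c at chr2:164769779-164769927 and Espl1 at chr15:102296143-102296292. All reach the start except that of Ube2c, which holds 149 bases in place of 150 and stops just short of it. An exon of the same gene in GENCODE M21 covers the last 26 bases for Cdk1, 9 for Cdc20, 30 for Ube2c and 27 for Espl1. The CHR letters of Ccnb2 and Plk1 lie outside the printed bases, at other places of their windows. No CHR letters were found in the windows of Ccnb1, Nek2, Birc5, Mad2l1, Nuf2, Cenpe and Pttg1, and no CCAAT letters in those of Birc5, Mad2l1, Ndc80, Nuf2, Kif2c, Pttg1 and Anln.

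**Figure D1:**
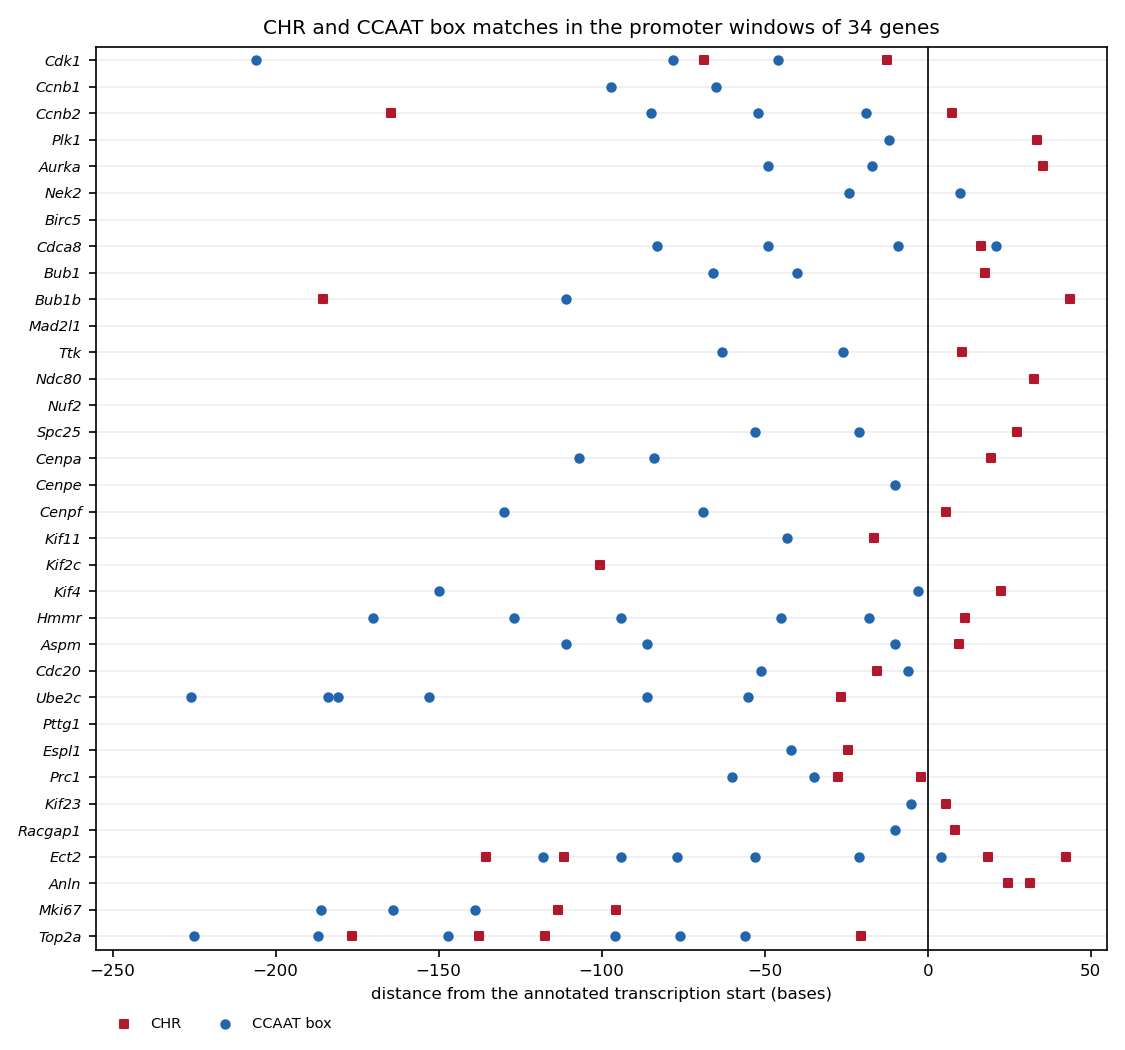
CHR (red squares) and CCAAT box (blue circles) matches by distance from the annotated start (horizontal axis, bases) in the windows of 34 members (rows); matches of genes with more than 1 window share a row. Of 39 CHR matches, 28 begin within 50 bases of the start, and of 68 CCAAT matches, 65 begin before it.

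Values were averaged over the 24 libraries and divided by the gene length of the deposited table. For 36 of the 42 members that length equalled the exonic length of the gene in GENCODE M21. The level was highest for Mki67, at 477 per kilobase, and Top2a, the topoisomerase that untangles chromosomes, at 354 per kilobase. Cdc20 (262 per kilobase), Ccnb2 (227 per kilobase) and Kif11 (210 per kilobase) came next. The lowest levels were those of Mad2l1 (29.4 per kilobase), Ttk (31.9 per kilobase) and Nuf2 (34.5 per kilobase). This order depends on the lengths as well as on the values. Among the members whose lengths differed from GENCODE M21 were Kif11 (4819 bases deposited, 7461 in GENCODE), Ndc80 (2201 and 6493) and Cdc25c (1941 and 4919). With the GENCODE lengths their levels would be lower, so their places in the order are less certain. Mad2l1, with a length of 8390 bases, had a mean value of 247, above those of Ttk (157) and Nuf2 (218.5). The members lie on 16 chromosomes. The sources used here do not give whether reads were counted by strand, and exons of genes on the opposite strand cover 29.3% of the exonic length of Kif20a, 22.8% of Ube2c, 15.1% of Kif4, 12.7% of Cdc25c, 12.5% of Ccna2 and 11.1% of Prc1, so these 6 are less certain.

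Most of the 42 genes shared 1 pattern across the groups. The group mean was highest at 12 days after distal amputation for 40 of 42 genes and lowest at 21 days after distal amputation for 39. The sum of the 42 values made up 0.179% to 0.273% of the table total in the distal 12 day libraries and 0.139% to 0.163% at 14 days. In the distal 21 day libraries it made up 0.0964% to 0.131%. After proximal amputation the same share was 0.132% to 0.167% at 12 days, 0.122% to 0.164% at 14 days and 0.152% to 0.212% at 21 days. The distal groups did not overlap each other in this share, whereas the proximal groups did. A few libraries held the extreme values of many members. Distal 12 days replicate 3 was the highest of its group for 42 of 42 genes and the highest of all 24 libraries for 40, and distal 21 days replicate 1 was the lowest of all 24 for 30. The counts below are given with and without them, and the calls that were lost are named.

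**Figure D2:**
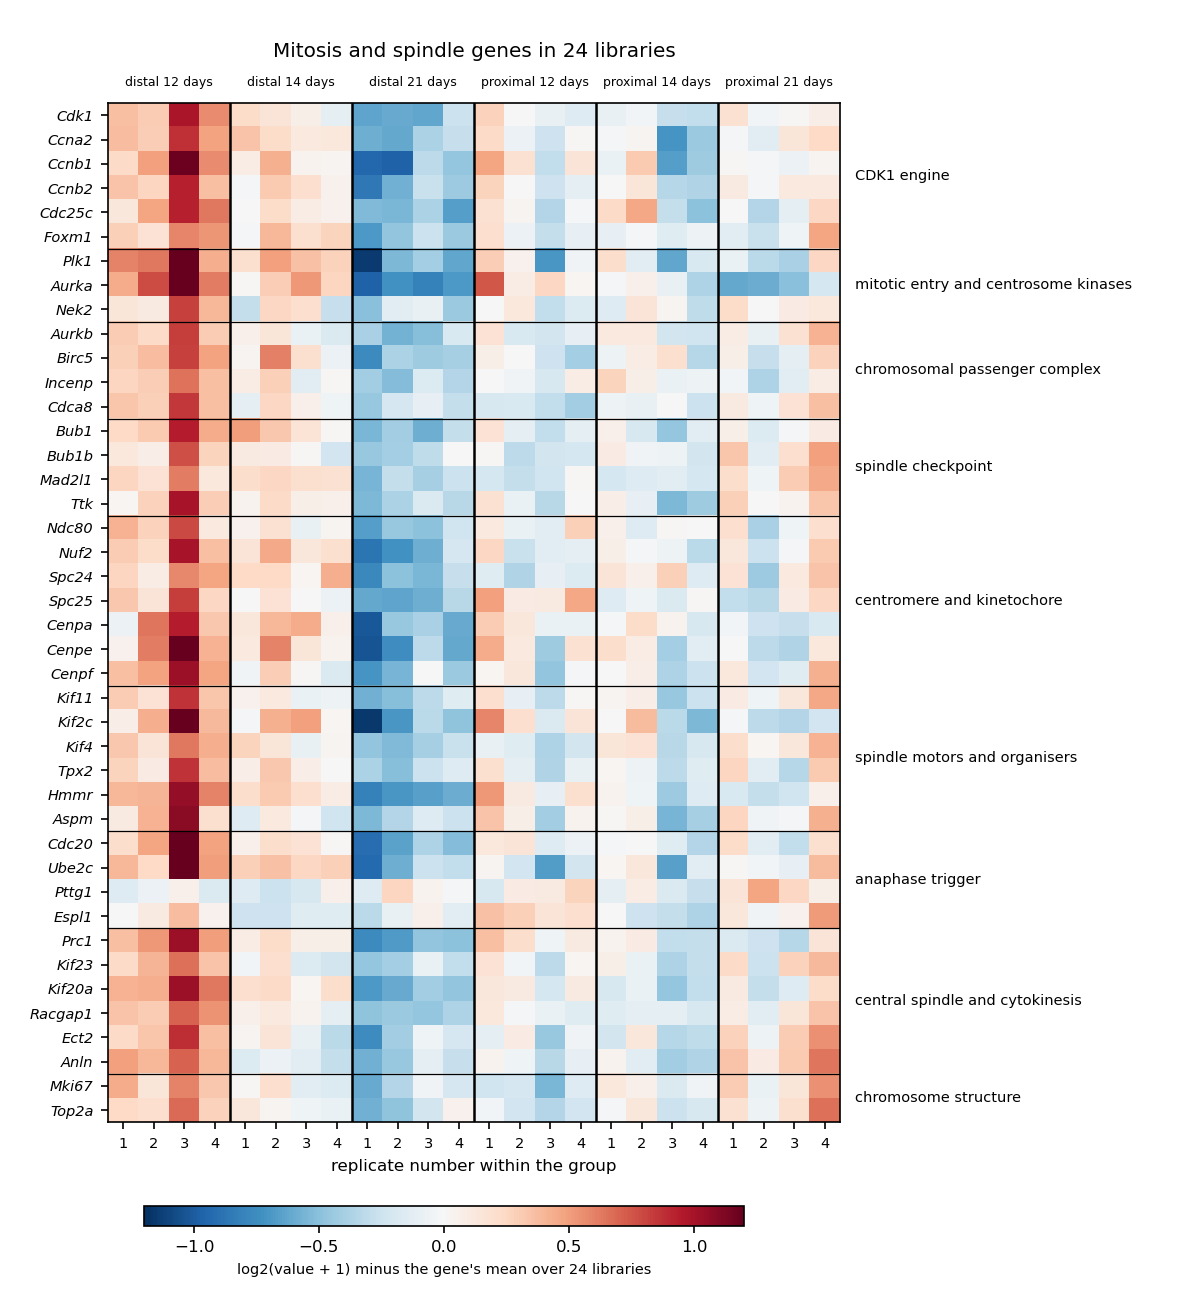
Each row is 1 of the 42 genes, ordered by role, and each column 1 of the 24 libraries; colour is log2(value + 1) minus the gene's mean over the 24 libraries. The distal 12 day block is the reddest, with replicate 3 above the rest, and the distal 21 day block the bluest. Pttg1 and Espl1 are the genes whose highest mean is in another block.

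The first comparison asks how the 2 amputation levels differ at 12 days. After distal amputation, 32 of the 42 genes were higher than after proximal amputation and 0 were lower (limma, adjusted p under 0.05 over all genes tested). Over all 15055 genes, 9.25% were called higher and 11% lower. The median log2 difference was 0.50 over the members and -0.03 over all genes. In 22 members each distal library lay above each proximal one, against 10.4% of all genes. The count rests in part on 2 libraries: it was 16 without distal 12 days replicate 3 and 19 without proximal 12 days replicate 3. The 16 were Cdk1, Plk1, Birc5, Incenp, Cdca8, Bub1, Mad2l1, Spc24, Cenpf, Kif4, Ube2c, Kif20a, Racgap1, Anln, Mki67 and Top2a, and the 19 were these with Aurkb, Bub1b and Cdc20. The scale and the fit also mattered. With values scaled to table totals 9 of the 32 calls were lost, and with only the compared groups in the fit 10 were lost. In the same comparison 3 of 9 basal keratinocyte markers were higher and 0 lower, and 1 of 8 macrophage markers was higher and 4 lower. Of 6 cartilage markers 1 was higher and 3 lower, of 8 fibroblast markers 0 were higher and 3 lower, and of 8 suprabasal keratinocyte markers 0 were higher and 1 lower. Their sums are given below, and their part in the result was not tested.

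Among the engine of mitotic entry, 5 of 6 genes were higher at 12 days. Cdk1, the kinase itself, had values of 674, 647, 1034 and 778 in the distal libraries and 634, 524, 494 and 471 in the proximal ones. Each distal library lay above each proximal one, a 1.46-fold difference (log2 0.54 ± 0.13, adjusted p = 0.00407). Without distal replicate 3 the difference was smaller and still called (log2 0.40 ± 0.11, adjusted p = 0.0177). Ccnb1, which encodes cyclin B1, stood at 232, 278, 448 and 293 against 275, 224, 161 and 220. These groups overlapped and the difference was not called (log2 0.49 ± 0.21, adjusted p = 0.103). The other B-type cyclin gene, Ccnb2, was called (log2 0.50 ± 0.15, adjusted p = 0.0216), as was Ccna2, for cyclin A2 (log2 0.53 ± 0.15, adjusted p = 0.0142). Foxm1, the transcription factor that switches on many of these genes, had values of 482, 445, 594 and 572 distally and 453, 376, 323 and 369 proximally. Its lowest distal library lay just below its highest proximal one (log2 0.46 ± 0.14, adjusted p = 0.021). Cdc25c, the phosphatase that activates CDK1, had a log2 difference of 0.58 ± 0.19 (adjusted p = 0.0294). Without distal replicate 3 these calls were lost for Ccna2 (log2 0.40 ± 0.15, adjusted p = 0.0627), Ccnb2 (log2 0.34 ± 0.14, adjusted p = 0.0964), Foxm1 (log2 0.40 ± 0.15, adjusted p = 0.0713) and Cdc25c (log2 0.45 ± 0.19, adjusted p = 0.11). All 4 were also lost without proximal replicate 3.

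All 3 kinases of entry and the centrosome were higher at 12 days. Plk1, the polo-like kinase, had the largest difference of all members: its values were 299, 308, 530 and 268 distally and 244, 206, 122 and 192 proximally. The groups did not overlap, and the difference was 1.82-fold (log2 0.86 ± 0.22, adjusted p = 0.0091). Without distal replicate 3, it remained called (log2 0.65 ± 0.21, adjusted p = 0.042). Aurka, the centrosomal Aurora kinase, had values of 221, 279, 454 and 248 and 272, 172, 192 and 164. Here the groups overlapped, and the call (log2 0.56 ± 0.18, adjusted p = 0.0352) was lost without distal replicate 3 (log2 0.34 ± 0.16, adjusted p = 0.154). Nek2, a kinase that separates centrosomes, had a log2 difference of 0.46 ± 0.16 (adjusted p = 0.041), a call also lost without that library. Both calls were lost without proximal replicate 3 as well.

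The chromosomal passenger complex corrects faulty attachments, and all 4 of its genes were higher, each without overlap between groups. Aurkb, its kinase, stood at 487, 464, 701 and 489 distally and 445, 348, 338 and 370 proximally (log2 0.50 ± 0.14, adjusted p = 0.0119). Distal replicate 3 was far above its group, and without it the call was lost (log2 0.36 ± 0.13, adjusted p = 0.0542). Cdca8, which encodes borealin, had values of 387, 375, 556 and 396 against 269, 271, 250 and 230. Its lowest distal library lay well above its highest proximal one (log2 0.73 ± 0.12, adjusted p = 0.000152). Birc5, for survivin, differed by log2 0.64 ± 0.16 and Incenp, the scaffold, by log2 0.43 ± 0.11.

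Of the 4 checkpoint genes, 3 were higher. Bub1, a checkpoint kinase at the kinetochore, had values of 233, 246, 380 and 270 distally and 223, 182, 161 and 182 proximally. The groups did not overlap, and the difference held without distal replicate 3 (log2 0.57 ± 0.14, adjusted p = 0.00713 with it, log2 0.42 ± 0.13, adjusted p = 0.0324 without it). Mad2l1, for the inhibitor MAD2, stood at 289, 274, 371 and 265 against 209, 198, 205 and 245, again with no overlap (log2 0.47 ± 0.11, adjusted p = 0.00355). Bub1b was called (log2 0.49 ± 0.14, adjusted p = 0.0177) and the checkpoint kinase gene Ttk was not (log2 0.45 ± 0.17, adjusted p = 0.0586). At the kinetochore itself, 3 of 7 genes were called: Nuf2 (log2 0.54 ± 0.17) and Spc24 (log2 0.54 ± 0.15), which belong to the NDC80 complex that grips microtubules, and the large kinetochore protein gene Cenpf (log2 0.67 ± 0.17). Their partners Ndc80 (log2 0.35 ± 0.14, adjusted p = 0.0841) and Spc25 (log2 0.10 ± 0.14, adjusted p = 0.669) were not called, nor were Cenpa, the centromeric histone gene (log2 0.39 ± 0.17), and Cenpe, a kinetochore motor gene (log2 0.49 ± 0.21). The calls of Bub1b (log2 0.34 ± 0.13, adjusted p = 0.0804) and Nuf2 (log2 0.36 ± 0.15, adjusted p = 0.115) were lost without distal replicate 3, and that of Nuf2 also without proximal replicate 3 (log2 0.51 ± 0.18, adjusted p = 0.0637).

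Among motors and organisers of the spindle, 4 of 6 were called. Kif4, a motor on chromosome arms, led with log2 0.59 ± 0.12 (adjusted p = 0.00124). Kif11, the motor that pushes the poles apart, Tpx2, which activates Aurora A on the spindle, and Hmmr, a microtubule-binding protein gene, followed at log2 0.47, 0.49 and 0.44, and these 3 calls were lost without distal replicate 3 and without proximal replicate 3. Kif2c, a microtubule depolymerase (log2 0.40 ± 0.25, adjusted p = 0.264), and Aspm, a spindle pole protein gene (log2 0.44 ± 0.19, adjusted p = 0.103), were not called.

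The 4 genes of the anaphase trigger split. Ube2c, the ubiquitin-conjugating enzyme of the anaphase promoting complex, had values of 277, 247, 486 and 297 distally and 215, 179, 131 and 180 proximally. Groups were apart, by 1.81-fold (log2 0.86 ± 0.20, adjusted p = 0.00423). Cdc20, the activator of that complex, stood at 543, 650, 1146 and 655 against 511, 520, 420 and 445, also with no overlap (log2 0.60 ± 0.17, adjusted p = 0.0143), and its call was lost without distal replicate 3 (log2 0.38 ± 0.13, adjusted p = 0.0555). Pttg1, for securin, had values of 166, 176, 193 and 164 distally and 161, 197, 199 and 222 proximally. These overlapped and were not called (log2 -0.15 ± 0.12, adjusted p = 0.388). Espl1, for separase, which securin holds in check, was 699, 756, 903 and 724 distally and 895, 854, 781 and 803 proximally, overlapping too (log2 -0.12 ± 0.11, adjusted p = 0.473). These were the members with negative differences at 12 days.

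In the central spindle and cytokinesis group all 6 genes were higher. PRC1 bundles the microtubules of the central spindle, KIF20A and KIF23 are its motors, and RACGAP1, ECT2 and anillin place and build the contractile ring. Anln, the scaffold of the contractile ring, had values of 1791, 1681, 2080 and 1680 distally and 1315, 1227, 1015 and 1191 proximally, with no overlap (log2 0.61 ± 0.12, adjusted p = 0.00105). Racgap1, a subunit of centralspindlin, stood at 943, 917, 1212 and 1078 against 809, 727, 702 and 670, also apart (log2 0.51 ± 0.09, adjusted p = 0.000419). Kif20a (log2 0.60), Ect2 (log2 0.58), Kif23 (log2 0.45) and Prc1 (log2 0.44) were called as well, and the calls of the last 3 were lost without distal replicate 3 and without proximal replicate 3. Mki67, whose product coats mitotic chromosomes, was 6382, 5185, 7112 and 5871 distally and 3973, 4091, 3204 and 4221 proximally. The lowest distal library exceeded the highest proximal one (log2 0.66 ± 0.13, adjusted p = 0.00134). Top2a behaved likewise, with 4018 ± 671 against 2705 ± 254 (mean ± SD, n = 4) and a log2 difference of 0.56 ± 0.14.

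**Figure D3:**
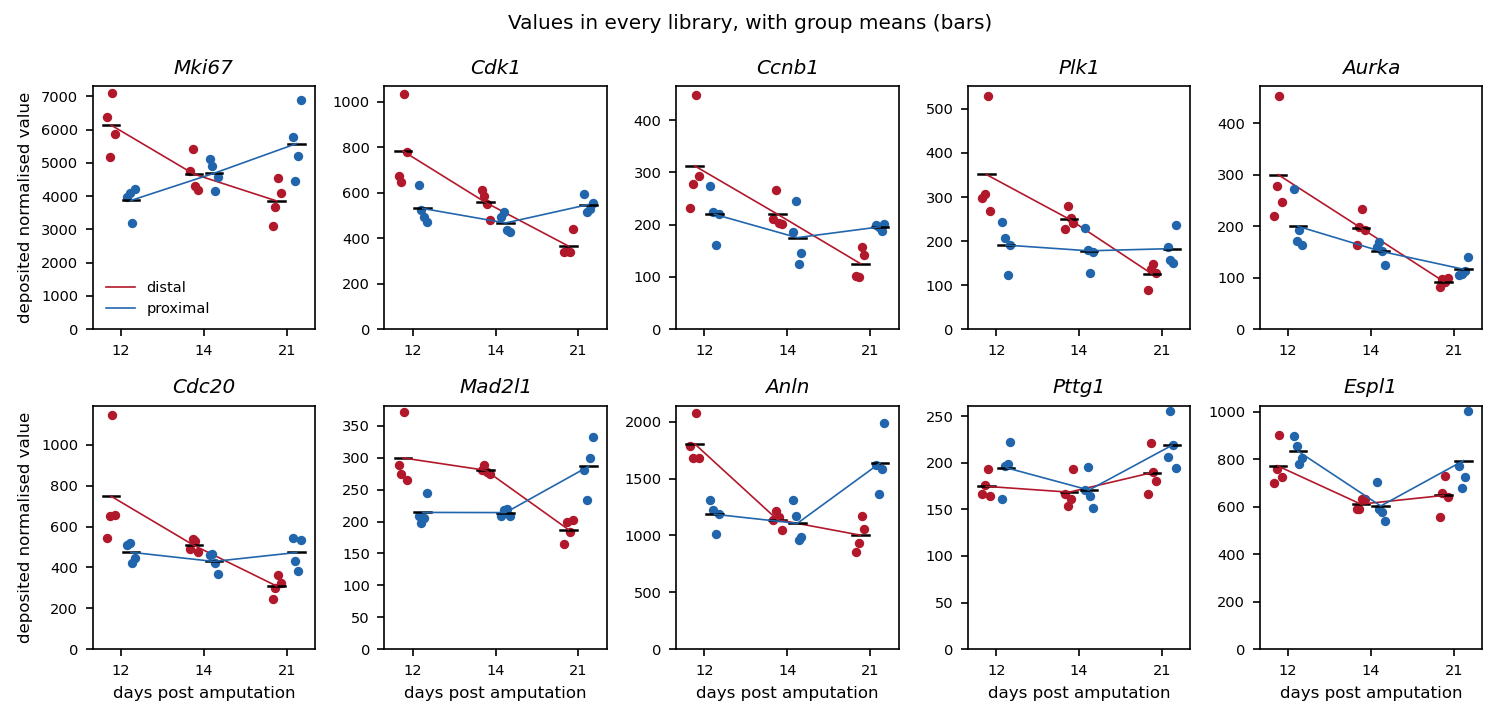
Deposited normalised values (vertical axes, from 0) of 10 members at 12, 14 and 21 days (horizontal axis, days drawn evenly spaced); points are libraries, red distal and blue proximal, black bars group means, n = 4. At 21 days the red mean is below the blue one in all 10 panels, and at 12 days it is above it in all but Pttg1 and Espl1.

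At 14 days 1 of 42 members, Mad2l1, was called higher distally and 0 were called lower, against 3.06% of all genes higher and 2.32% lower. The median log2 difference was 0.19 over the members and 0.001 over all genes, and 40 of 42 differences were positive. In 7 members the distal libraries all lay above the proximal ones, as they did in 6.28% of all genes. Mad2l1 had values of 281, 288, 277 and 275 distally and 209, 218, 220 and 209 proximally. The groups did not overlap (log2 0.39 ± 0.11, adjusted p = 0.0392). Yet the call was lost in each of the 8 fits that left out 1 library and with table totals as the scale. The largest difference was that of Plk1, with 227, 280, 253 and 240 against 229, 180, 128 and 175, which overlapped (log2 0.51 ± 0.22, adjusted p = 0.191). Mki67, the classic marker of cycling cells, was 4749, 5412, 4314 and 4182 distally and 5122, 4898, 4161 and 4567 proximally. Its groups overlapped (log2 -0.01 ± 0.13, adjusted p = 0.979). A p that misses the threshold does not show that levels were equal.

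At 21 days the order of the levels was the opposite. Of the 42 genes, 29 were lower after distal than after proximal amputation and 0 higher, against 9.43% of all genes lower and 8.22% higher, and all 42 differences were negative. The median log2 difference was -0.52 over the members and -0.05 over all genes. In 25 members each distal library lay below each proximal one, against 10.2% of all genes. The count was 14 without distal 21 days replicate 1 and 15 without proximal 21 days replicate 4. Both fits lost the calls of Ccna2, Ccnb1, Foxm1, Birc5, Cdca8, Bub1, Bub1b, Ttk, Ndc80, Spc25, Ube2c, Prc1 and Kif23. Without distal replicate 1, Cdc20 (log2 -0.51 ± 0.18, adjusted p = 0.0611) and Ect2 (log2 -0.49 ± 0.17, adjusted p = 0.0604) were also lost, and without proximal replicate 4 Kif11 (log2 -0.45 ± 0.15, adjusted p = 0.0514). Among the lost calls the adjusted p was at most 0.159 without distal replicate 1 and 0.136 without proximal replicate 4, both for Ube2c. Called in both of those fits were Cdk1, Ccnb2, Aurkb, Mad2l1, Nuf2, Spc24, Kif4, Hmmr, Kif20a, Racgap1, Anln, Mki67 and Top2a. Both higher at 12 days and lower at 21 days were 25 genes, which is 78.1% of the 32 and 86.2% of the 29. The same overlap over all genes was not counted. With values scaled to table totals the median of all genes shifted to -0.19 on the log2 scale and 39 members were lower. With only the compared groups in the fit 6 calls were lost and 2 gained. In the same comparison 2 of 6 erythroid, 2 of 8 fibroblast and 1 of 6 cartilage markers were higher distally and 0 were lower. Of 9 basal keratinocyte markers 2 were higher and 1 lower, and of 8 suprabasal keratinocyte markers 0 were higher and 2 lower. Their part in the result was not tested.

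Anln had the largest difference at 21 days, with 854, 931, 1173 and 1054 distally and 1617, 1361, 1588 and 1989 proximally. The groups did not overlap and the proximal level was 1.63 times the distal one (log2 -0.70 ± 0.12, adjusted p = 0.000432). Cdk1 had 338, 344, 340 and 439 against 594, 514, 530 and 554. Its highest distal library lay below its lowest proximal one (log2 -0.59 ± 0.13, adjusted p = 0.00306). Mad2l1, with 164, 199, 183 and 203 against 281, 233, 299 and 332, was also apart (log2 -0.60 ± 0.11, adjusted p = 0.000743). Of the CDK1 engine 5 of 6 genes were lower, Cdc25c being the exception (log2 -0.48 ± 0.19, adjusted p = 0.0797). Ccnb1 stood at 102, 100, 158 and 143 distally and 199, 195, 188 and 202 proximally. It had not been called at 12 days, and here the groups were separate (log2 -0.66 ± 0.21, adjusted p = 0.0312). Foxm1 was 244, 285, 331 and 289 distally against 360, 327, 381 and 548, also called (log2 -0.47 ± 0.14, adjusted p = 0.0223).

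None of the 3 entry and centrosome kinases was called at 21 days, although their groups did not overlap. Plk1 had 89, 136, 149 and 128 distally and 187, 158, 151 and 236 proximally. The highest distal library lay just below the lowest proximal one (log2 -0.54 ± 0.22, adjusted p = 0.0969). Aurka had 82, 97, 92 and 100 against 105, 107, 114 and 140 (log2 -0.32 ± 0.18, adjusted p = 0.239). In the passenger complex 3 of 4 were lower: Aurkb stood at 301, 267, 276 and 348 distally and 420, 371, 448 and 527 proximally (log2 -0.56 ± 0.14, adjusted p = 0.00703), Birc5 at log2 -0.48 ± 0.16 and Cdca8 at log2 -0.41 ± 0.12. Incenp was not called (log2 -0.26 ± 0.11, adjusted p = 0.119). All 4 checkpoint genes were lower, Bub1 with 135, 148, 131 and 162 distally and 207, 176, 196 and 212 proximally (log2 -0.46 ± 0.14, adjusted p = 0.032). The kinetochore gave 4 of 7, the whole NDC80 complex: Nuf2 (log2 -0.64 ± 0.17), Spc24 (log2 -0.57 ± 0.15), Spc25 (log2 -0.47 ± 0.14) and Ndc80 (log2 -0.46 ± 0.14). Cenpa, Cenpe and Cenpf were not called, with log2 differences of -0.43, -0.54 and -0.47.

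Of the motors and organisers, Kif11, Kif4 and Hmmr were lower at 21 days, Kif4 by the most (log2 -0.61 ± 0.12), and Kif2c, Tpx2 and Aspm were not called. Of the anaphase trigger, Cdc20 had 247, 300, 361 and 325 distally and 546, 429, 382 and 535 proximally. Its groups were apart (log2 -0.61 ± 0.17, adjusted p = 0.0153). Ube2c was called too (log2 -0.58 ± 0.20, adjusted p = 0.0461). Pttg1, with 166, 221, 190 and 181 distally and 206, 256, 219 and 194 proximally, had the smallest difference of the 42, and its groups overlapped (log2 -0.21 ± 0.12, adjusted p = 0.226). Espl1 was 558, 657, 730 and 642 against 769, 679, 725 and 1001, overlapping as well (log2 -0.28 ± 0.11, adjusted p = 0.0708). All 6 cytokinesis genes were lower, Racgap1 with 531, 543, 537 and 573 distally and 791, 675, 822 and 943 proximally (log2 -0.55 ± 0.09, adjusted p = 0.00033). Mki67 had 3093, 3684, 4556 and 4092 distally and 5787, 4455, 5204 and 6888 proximally, in which 1 distal library passed the lowest proximal one (log2 -0.53 ± 0.13, adjusted p = 0.0095). Top2a was 2560 ± 513 against 3761 ± 824 (mean ± SD, n = 4; log2 -0.55 ± 0.14).

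**Figure D4:**
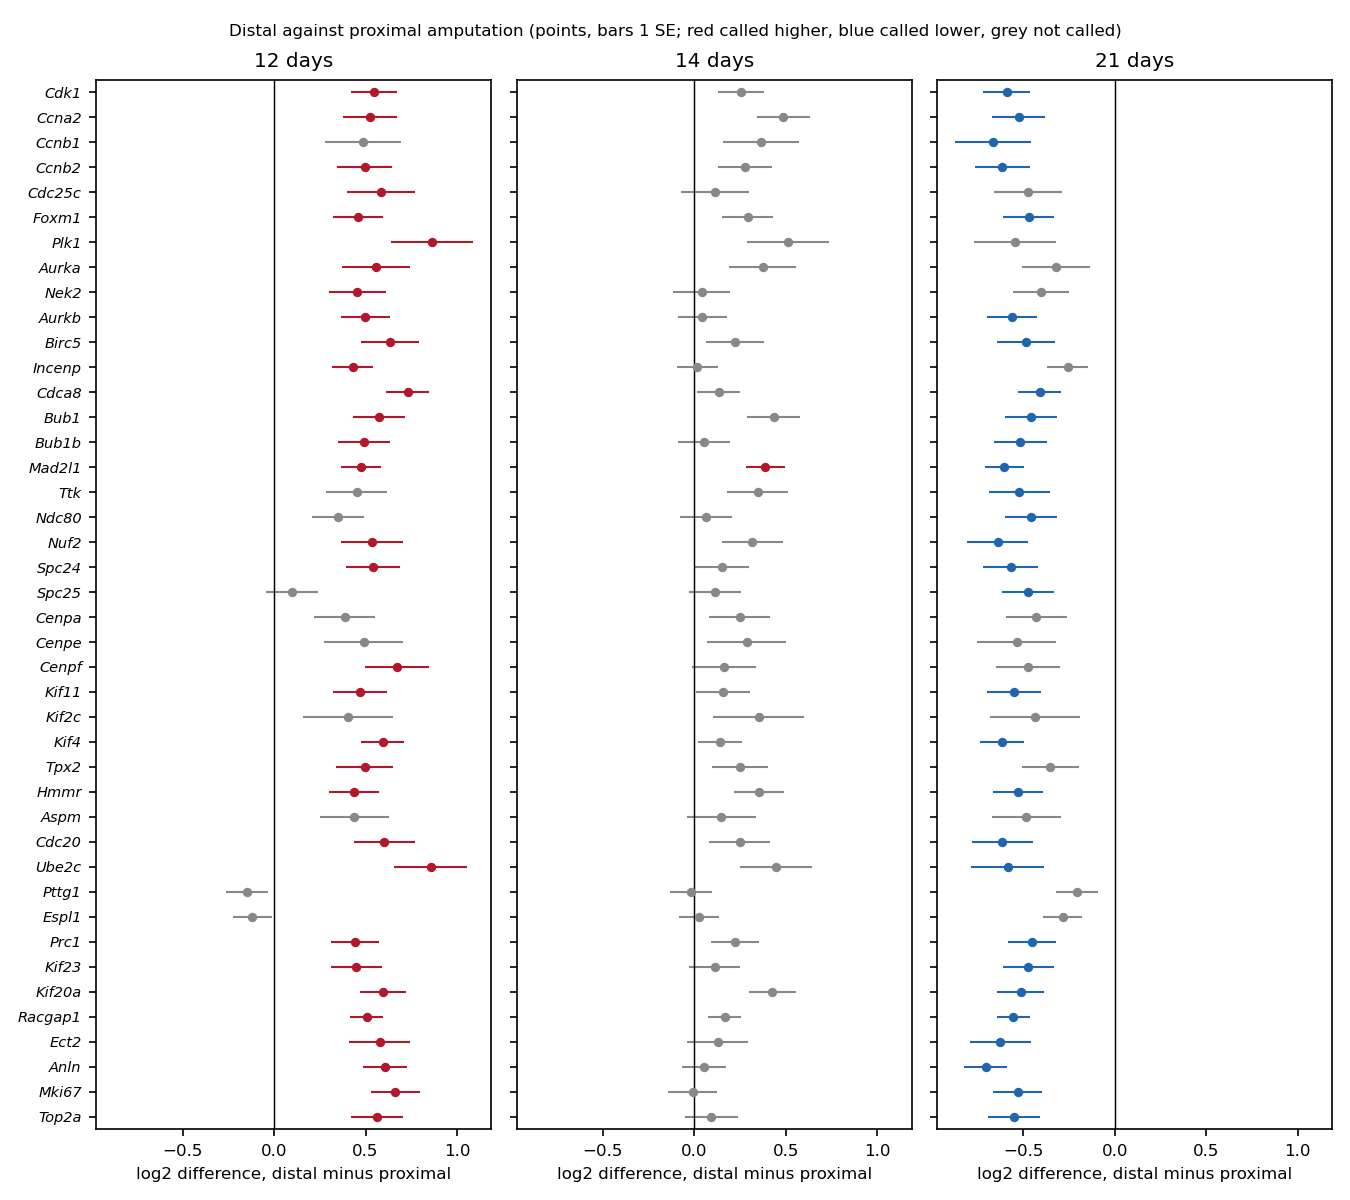
Log2 difference between distal and proximal amputation (horizontal axes) for each of the 42 genes (rows, by role) at 12, 14 and 21 days; points are fitted differences, bars 1 standard error, red called higher, blue called lower, grey not called. The called members number 32 to the right of 0 at 12 days, 1 at 14 days and 29 to the left of 0 at 21 days.

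Within distal amputation the genes fell with time; these comparisons share their libraries with those between levels. From 12 to 21 days 40 of 42 fell and 0 rose, against 15% and 8.81% of all genes, with a median log2 change of -0.89 (all genes -0.02), and in those 40 each 21 day library lay below each 12 day library, against 14.9% of all genes. The count was 40 in each fit that left out 1 of these 8 libraries. Aurka fell the most, with 12 day values of 221, 279, 454 and 248 and 21 day values of 82, 97, 92 and 100. The day 12 level was 3.1 times the day 21 level (log2 -1.63 ± 0.18, adjusted p = 3.42e-06). Plk1 came second (log2 -1.45 ± 0.22, adjusted p = 8.73e-05), then Hmmr (log2 -1.30 ± 0.14, adjusted p = 2.3e-06) and Ccnb1 (log2 -1.29 ± 0.21, adjusted p = 0.000127). The exceptions were Pttg1 (log2 0.11 ± 0.12, adjusted p = 0.515) and Espl1 (log2 -0.25 ± 0.11, adjusted p = 0.0945). Markers of other cell types also fell distally from 12 to 21 days. Of 6 osteoclast markers 6 fell, and their sum per kilobase went from 7130 to 24530 at 12 days to 1474 to 4127 at 21 days. Of 8 osteoblast markers 4 fell, with sums of 4479 to 9852 and then 950.6 to 1824. Of 8 macrophage markers 3 fell, with sums of 2128 to 2764 and then 1356 to 1669. Of 7 endothelial markers 3 fell, with sums of 771.4 to 979.9 and then 386.3 to 690. Of 8 fibroblast markers 3 fell and of 9 basal keratinocyte markers 1 fell, and 0 rose in any of these 6 lists. Of the cartilage, erythroid and suprabasal keratinocyte markers 0 were called by limma, with 0, 0 and 1 at an unadjusted p under 0.05. The osteoclast, osteoblast, macrophage and endothelial sums did not overlap between the days. The basal keratinocyte, fibroblast, cartilage, erythroid and suprabasal keratinocyte sums did. The part of these cell types in the fall of the members was not tested.

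The fall took place in both steps. From 12 to 14 days 16 of 42 genes fell and 0 rose, against 8.12% and 11.2% of all genes. From 14 to 21 days 31 fell and 0 rose, against 21.5% and 13.3%. Fallen in both steps were 10 genes, which is 62.5% of the 16 and 32.3% of the 31. The steps share the 14 day libraries, and the overlap over all genes was not counted. All 6 cytokinesis genes fell in the first step, led by Anln (log2 -0.66 ± 0.12), and 3 of them in the second. Of the CDK1 engine, 1 of 6 fell in the first step, Cdk1 (log2 -0.47 ± 0.13), and 6 of 6 in the second. Of the kinetochore genes 1 of 7 fell in the first, Cenpf (log2 -0.56 ± 0.17), and 7 of 7 in the second, led by Cenpe (log2 -0.90 ± 0.21) and Cenpa (log2 -0.88 ± 0.17). The difference between the steps was not tested. The first count was 4 without distal 12 days replicate 3, 7 without distal 14 days replicate 3 or 4, and 9 without distal 14 days replicate 1 or with only the compared groups in the fit.

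After proximal amputation few of the genes changed. From 12 to 14 days 0 rose and 1 fell, against 7.35% and 7.84% of all genes. It was Espl1, from 895, 854, 781 and 803 to 704, 590, 575 and 541, with no overlap (log2 -0.47 ± 0.11, adjusted p = 0.00485). From 14 to 21 days 6 rose and 0 fell, against 12.5% and 16.3% of all genes. These were Mad2l1 (log2 0.41 ± 0.11), Pttg1 (log2 0.35 ± 0.12), Espl1 (log2 0.39 ± 0.11), Racgap1 (log2 0.25 ± 0.09), Ect2 (log2 0.45 ± 0.17) and Anln (log2 0.56 ± 0.12). Table totals as the scale gave 14 rises, and only the compared groups 3. Leaving out proximal 14 days replicate 3 or 4 or proximal 21 days replicate 3 also gave 3, and leaving out proximal 21 days replicate 1 or 4 gave 4. From 12 to 21 days 7 genes rose and 1 fell, against 12% and 17% of all genes. Those that rose were Mki67 (log2 0.52 ± 0.13), Anln (log2 0.46 ± 0.12), Top2a (log2 0.46 ± 0.14), Cdca8 (log2 0.42 ± 0.12), Mad2l1 (log2 0.41 ± 0.11), Kif4 (log2 0.41 ± 0.12) and Bub1b (log2 0.40 ± 0.14). Without proximal 21 days replicate 4, 4 rose and 4 fell, and without proximal 12 days replicate 3, 5 rose and 2 fell. Marker lists fell in this interval too: 4 of 6 osteoclast, 4 of 8 osteoblast, 6 of 8 macrophage and 5 of 8 fibroblast markers fell and 0 rose, while 2 of 9 basal keratinocyte markers rose and 0 fell. Of 6 cartilage markers 1 rose and 3 fell, of 8 suprabasal keratinocyte markers 1 rose and 0 fell, and of 7 endothelial markers 0 rose and 1 fell. Their part was not tested.

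Aurka was the 1 member called lower at 21 than at 12 days after both amputations. After proximal amputation its values were 272, 172, 192 and 164 at 12 days, 160, 169, 152 and 125 at 14 days and 105, 107, 114 and 140 at 21 days. Each 21 day library lay below each 12 day library (log2 -0.75 ± 0.18, adjusted p = 0.00372). The distal 14 day values were 163, 199, 233 and 193, with a mean between those of days 12 and 21. The fall was larger distally than proximally, with a log2 difference between the falls of -0.88 ± 0.26 (adjusted p = 0.0257). This difference was called in 19 of 23 alternatives. It was lost without distal 21 days replicate 1, proximal 12 days replicate 2 or 4, or proximal 21 days replicate 4 (limma, adjusted p at most 0.0563).

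**Figure D5:**
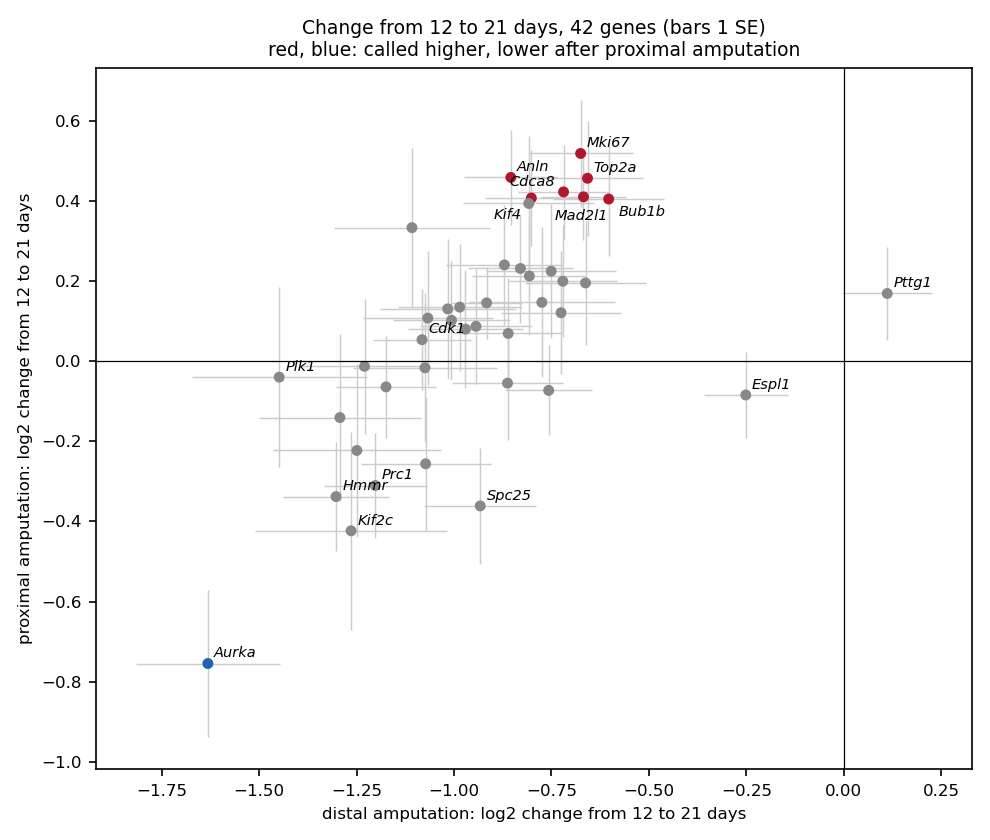
Log2 change from 12 to 21 days after distal amputation (horizontal axis) and after proximal amputation (vertical axis) for the 42 genes; points are genes, bars 1 standard error, red and blue called higher and lower after proximal amputation. After distal amputation 41 of 42 changes are negative, whereas after proximal amputation 27 are positive and 15 negative; Aurka is low on both axes and Pttg1 is right of 0.

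The fall from 12 to 21 days was set against the change after proximal amputation. For 38 of 42 genes it was more negative after distal amputation, and for 0 more positive, against 7.42% of all genes in each direction. The median log2 difference in change was -1.05 over the members and -0.01 over all genes. The count lay between 35 and 39 in the 16 fits that left out 1 library, and 34 of the 38 were called in each alternative. The largest were Ube2c (log2 -1.44 ± 0.28, adjusted p = 0.00146) and Plk1 (log2 -1.41 ± 0.32, adjusted p = 0.00439), followed by Anln (log2 -1.31 ± 0.17, adjusted p = 3.29e-05). The 4 genes not called were Pttg1 (log2 -0.06 ± 0.16, adjusted p = 0.861), Espl1 (log2 -0.17 ± 0.15, adjusted p = 0.509), Spc25 (log2 -0.57 ± 0.20, adjusted p = 0.0617) and Kif2c (log2 -0.84 ± 0.35, adjusted p = 0.114). By role, all genes of the engine, the entry kinases, the passenger complex, the checkpoint, cytokinesis and chromosome structure were called, 6 of 7 of the kinetochore, 5 of 6 motors and organisers and 2 of 4 of the anaphase trigger.

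By interval, 3 genes changed differently at the levels from 12 to 14 days, each more negative distally, against 5.08% of all genes more negative and 6.61% more positive. They were Anln (log2 -0.56 ± 0.17, adjusted p = 0.0348), Mki67 (log2 -0.67 ± 0.19, adjusted p = 0.0236) and Cdca8 (log2 -0.60 ± 0.17, adjusted p = 0.0226). From 14 to 21 days 12 did, again each more negative distally, against 0.897% of all genes more negative and 1% more positive. They were Cdk1, Ccna2, Ccnb2, Foxm1, Bub1, Mad2l1, Nuf2, Kif4, Hmmr, Kif20a, Racgap1 and Anln, with Mad2l1 at log2 -0.99 ± 0.15 and Ccna2 at log2 -1.01 ± 0.21. The first count was 1 without distal 14 days replicate 4 or proximal 12 days replicate 3, and 1 with table totals as the scale. The second was 5 without distal 14 days replicate 2, distal 21 days replicate 1 or proximal 14 days replicate 3, 7 without distal 21 days replicate 2 or proximal 21 days replicate 4, and 31 with table totals, which moved the median of all genes to -0.20.

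Pttg1 and Espl1 had the smallest spread of group means of the 42 genes. Pttg1 had group means from 169 ± 17.1 at distal 14 days to 219 ± 26.8 at proximal 21 days (mean ± SD, n = 4), a ratio of 1.30. Espl1 ran from 603 ± 70.7 at proximal 14 days to 833 ± 51.3 at proximal 12 days, a ratio of 1.38. That ratio was highest for Aurka, at 3.24, and Plk1, at 2.80. The Pttg1 window held neither CHR nor CCAAT letters, whereas the Espl1 window held both. The windows of Birc5, Mad2l1 and Nuf2 also lacked both. These 3 were called at 12 and at 21 days, but Birc5 was not called at 21 days without distal 21 days replicate 1 (log2 -0.39 ± 0.17, adjusted p = 0.127), nor Nuf2 at 12 days without distal 12 days replicate 3.

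Other cell cycle genes, in lists of their own, were read beside the members. Of 67 further mitosis genes, 30 were higher distally at 12 days, 1 at 14 days and 0 at 21 days, when 29 were lower; the medians were 0.36, 0.14 and -0.42. Trip13, a partner of the checkpoint protein MAD2, was among the largest, with log2 0.70 ± 0.13 at 12 days and -0.68 ± 0.13 at 21 days. Its 12 day values, here and for the next genes in rising order, were 194, 206, 213 and 231 distally and 109, 131, 139 and 139 proximally, and its 21 day values 99, 99, 108 and 147 and 149, 163, 198 and 213. Of 37 genes of DNA replication, 21 were higher at 12 days, 0 were called by limma at 14 days (1 at an unadjusted p under 0.05) and 24 were lower at 21 days. There Orc1, for a subunit of the origin recognition complex, led at 21 days (log2 -1.12 ± 0.16, adjusted p = 7.3e-05), with 28, 29, 32 and 38 distally and 60, 69, 73 and 79 proximally. These groups did not overlap.

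The anaphase promoting complex, on which Cdc20 and Ube2c act, was read as a list of 16 genes: 14 for its subunits, with its other activator Fzr1 and its inhibitor Fbxo5. Of these 0 were called at 12, 14 or 21 days by limma, with medians of 0.003, 0.064 and -0.005 on the log2 scale, and 1, 3 and 2 had an unadjusted p under 0.05. From 12 to 21 days 1 changed differently at the levels, which was no subunit but Fbxo5, for the inhibitor EMI1 (log2 -0.66 ± 0.20, adjusted p = 0.0305). Of 21 genes of cell cycle transcription, 6 were higher and 2 lower at 12 days. Mybl2, the B-MYB factor that acts on CHR promoters, was the highest, with 172, 288, 301 and 325 distally and 135, 147, 155 and 157 proximally (log2 0.83 ± 0.18, adjusted p = 0.0022). At 21 days Mybl2 was not called (log2 -0.01 ± 0.18, adjusted p = 0.978), nor at 14 days (log2 0.18 ± 0.18). Of this list 1 was higher and 0 lower at 14 days, and 1 was higher and 2 lower at 21 days, E2f8 by the most (log2 -0.70 ± 0.14). Rbl2, for the p130 protein of the DREAM complex, was lower at 12 days (log2 -0.32 ± 0.07) and not called at 21 days (log2 0.03 ± 0.07). A list of 18 genes held CDK inhibitors and G1 cyclins, and also CDKs, cyclin G genes and kinases that inhibit CDKs. Of the 18, 2 were higher and 2 lower at 12 days, and 0 were called by limma at 14 days (3 at an unadjusted p under 0.05). At 21 days 2 were higher and 5 lower, and the 5 were not all inhibitors or G1 cyclins. Cdkn1c, for the inhibitor p57, was lower distally at 12 days, with 16, 29, 32 and 38 against 59, 103, 115 and 123. These groups did not overlap (log2 -1.77 ± 0.24, adjusted p = 2e-05), whereas Cdkn1c differed by log2 -0.13 ± 0.24 at 14 days and -0.07 ± 0.24 at 21 days, neither called.

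The genes outside the members whose centred log2 profile over the 24 libraries lay nearest to the members' mean profile were Ckap2, Cdca2, Arhgap11a, Ncaph, Dlgap5, Shcbp1, Tacc3, Ncapg, Kif22 and Sgo1. Their root mean square differences ran from 0.0967 for Ckap2 to 0.136 for Sgo1 on the log2 scale, over 10904 genes with a mean value of at least 100. A flat profile would lie at 0.316. Of the 10, 9 were in the list of further mitosis genes and Arhgap11a was not. Among the members, Ccnb2 (0.0931) and Kif11 (0.0989) lay nearest to that mean.

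The tips hold many cell types, and marker levels are given beside these results as sums of values per kilobase. Genes were not scaled within a sum, so those with high values weigh most. Before division by length, the median values of Col1a1 and Col3a1 were 194780 and 119856, against 2002 for Prrx1 and 339 for Pi16, all fibroblast markers. Of 9 basal keratinocyte markers, which mark the dividing layer of the epidermis, 3 were higher distally at 12 days and 0 lower, while at 21 days 2 were higher and 1 lower. Their sum ran from 79470 to 116800 in distal and 65210 to 104400 in proximal libraries at 12 days, and from 75690 to 101500 and 92740 to 128300 at 21 days. Of 8 fibroblast markers 0 were higher and 3 lower at 12 days, with sums of 30060 to 50990 distally and 57070 to 76270 proximally. At 21 days 2 were higher and 0 lower, with sums of 21890 to 30140 and 17430 to 25750. Of 8 macrophage markers 1 was higher and 4 lower at 12 days, with sums of 2128 to 2764 and 3052 to 4891. The fibroblast, macrophage, cartilage and suprabasal keratinocyte sums did not overlap between levels at 12 days, where they were lower distally. Of 6 osteoclast markers 0 were called on any day by limma, and 3 had an unadjusted p under 0.05 at 12 days, with sums of 7130 to 24530 distally and 3964 to 27850 proximally at 12 days. At 21 days the sums were 1474 to 4127 distally and 1959 to 3087 proximally. Of 8 osteoblast markers 0, 1 and 0 were called at 12, 14 and 21 days.

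Of 9 erythroid markers 6 were measured. At 21 days 2 of them were called higher distally, and their sum ran from 1575 to 20390 distally and from 113.8 to 2841 proximally. At 12 days it ran from 518.1 to 17410 distally and from 207.1 to 18820 proximally, with 0 of 6 called by limma and 0 at an unadjusted p under 0.05. Of 6 cartilage markers 1 was higher and 3 lower at 12 days, with sums of 656.7 to 972.3 distally and 1279 to 2267 proximally, and 1 was higher at 21 days. Of 8 suprabasal keratinocyte markers 0 were higher and 1 lower at 12 days, with sums of 107900 to 136300 and 140100 to 268400, and 0 were higher and 2 lower at 21 days. Of 7 endothelial markers 0 were called by limma on any day, and 2 had an unadjusted p under 0.05 at 21 days. Skeletal muscle is not in the tissue label. Of its markers 2 of 6 were measured, and Acta1 was higher distally at 12 days (log2 2.08 ± 0.59), between 2 and 151 over all libraries. The other, Mylpf, was not called by limma at 12 days (log2 -0.16 ± 0.30, adjusted p = 0.74). At 14 days Acta1 differed in the opposite direction and was not called (log2 -1.89 ± 0.59, adjusted p = 0.0654). The 8 markers of marrow myeloid precursors and 8 of lymphocytes were not analysed here, so these dividing marrow cells have no measure beside the members. No measured marker was listed at 0 in all libraries. The part of any cell type in the differences of the mitosis genes was not tested.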

How the data were processed

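Total RNA depleted of ribosomal RNA was sequenced from 24 libraries, and the deposited table holds 1 whole-number value per gene and library for 15055 genes. Per the submitters' processing notes, cutadapt, STAR 2.5.4b, featureCounts 1.6.3 of Subread and build mm10 were used. The deposited values are treated as a normalised score rather than raw counts: the libraries' upper quartiles all lie between 902.5 and 930.5, and how they were normalised is not given in any source used here. Raw depth is therefore unknown, and table totals differ between libraries. In the direction of least spread, the libraries varied 6.71 times less than Poisson counts of these sizes would, over 9650 genes, so p-values may be too small.

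limma 3.58.1 in R 4.3.3 fitted 6 group means to log2(value + 1) of all genes and all 24 libraries, with an intensity trend and no filter. A log2 difference is on that scale. The 12 contrasts were tested, and a gene was called where its p, adjusted over all 15055 genes by Benjamini-Hochberg, was under 0.05. The fit was tested on simulated data. Errors are standard errors unless named SD. Alternatives were median-ratio factors, table totals, a minimum mean value of 50, pseudocounts of 0.5 and 8, only the compared groups, a replicate block, and each library left out. All members could be named. Values in every library were given for Mki67, Cdk1, Ccnb1, Foxm1, Plk1, Aurkb, Bub1, Cdc20 and the members with the largest or smallest differences, and for Mad2l1, Cdca8 and Racgap1, chosen after their values were seen. Of other lists, the called genes with the 2 largest rises or falls were eligible. The members and lists were chosen with earlier results of these data known. Gene lengths are those of the deposited table, exon overlaps come from GENCODE M21, and promoters from RefSeq. Columns with no matching sample numbered 0.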

Additional observations from a re-analysis of the deposited data

Results flagged for a closer look

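In 18 of 252 tests over the members and groups, 1 library lay apart from the other 3 of its group (by Dixon's ratio of the gap to the nearest library over the group's range, at the 95% critical value). Chance alone flags about 1 in 20 such groups, and members are not independent. Distal 12 days replicate 3 was high for 8 genes. It had 645 for Ccnb2 (others 404 to 433), 530 for Plk1 (268 to 308), 701 for Aurkb (464 to 489) and 556 for Cdca8 (375 to 396). It also had 419 for Nuf2 (246 to 271), 2407 for Cenpf (1525 to 1654), 720 for Ect2 (459 to 501) and 5018 for Top2a (3593 to 3784).

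Distal 14 days replicate 2 was high for Ccnb1 at 266 (others 202 to 210), Ttk at 179 (157 to 160), Cenpe at 786 (533 to 573) and Prc1 at 766 (690 to 702). Distal 21 days replicate 4 was high for Cdk1 at 439 (338 to 344) and Spc25 at 141 (114 to 118). Low values were those of Kif20a in distal 14 days replicate 3 at 404 (457 to 466) and in proximal 12 days replicate 3 at 343 (429 to 436). Birc5 was low in distal 21 days replicate 1 at 176 (223 to 230), and Ccnb2 in proximal 21 days replicate 2 at 332 (364 to 366).

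The change between days differed between amputation levels for 3 members from 12 to 14 days, 12 from 14 to 21 days and 38 from 12 to 21 days, by the interaction term of limma. Over all genes, 5.08%, 0.897% and 7.42% were more negative distally in these intervals, and 6.61%, 1% and 7.42% more positive. From 12 to 21 days the distal minus proximal difference in log2 change was -1.44 for Ube2c, -1.41 for Plk1, -1.31 for Anln, -1.22 for Cdc20 and -1.19 for Mki67. It was -1.15 for Ccnb1, -1.14 for Cdk1, -1.11 for Top2a, -1.08 for Mad2l1 and -1.06 for both Aurkb and Racgap1. It was -1.03 for Bub1, -0.93 for Foxm1 and -0.88 for Aurka.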

How the results depend on the processing

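Leaving out 1 library at a time, the members called between levels numbered 16 to 35 at 12 days, 0 to 1 at 14 days and 14 to 30 at 21 days. Distally they numbered 4 to 17 from 12 to 14 days, 26 to 31 from 14 to 21 days and 40 from 12 to 21 days. Proximally they numbered 1, 3 to 8 and 7 to 10. The differences in change gave 1 to 4 from 12 to 14 days, 5 to 15 from 14 to 21 days and 35 to 39 from 12 to 21 days. Table totals gave 0 between levels at 14 days, 2 from 12 to 14 days proximally, 14 from 14 to 21 days proximally, and 1 and 31 for the differences in change to 14 and from 14 to 21 days. A minimum mean value of 50 gave 2 at 14 days. Only the compared groups gave 9 distally from 12 to 14 days and 3 proximally from 14 to 21 days. Median-ratio factors and pseudocounts of 0.5 and 8 moved no count by over 1.5 times. The sign of a few differences turned. At 14 days, left-out fits gave Mki67 -0.084 to 0.040 (0.001 with table totals), Nek2 -0.052 to 0.124, Aurkb -0.016 to 0.102, Incenp -0.058 to 0.090, Pttg1 -0.085 to 0.050, Anln -0.014 to 0.137, Cdc25c -0.046 to 0.272, Bub1b -0.002 to 0.129 and Espl1 -0.025 to 0.102. Spc25 gave -0.048 to 0.177 at 12 days, and Pttg1 -0.133 to 0.031 for the difference in change from 12 to 21 days. The cause was not tested.

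With the replicate block, 32, 1 and 27 members were called between levels at 12, 14 and 21 days, 12 distally from 12 to 14 days, 28 from 14 to 21 days, and 38 for the difference in change from 12 to 21 days, and the block moved no count by over 1.5 times. No label says whether the replicate numbers pair libraries. Of 60 same-numbered pairs 16 had deviations correlated above 0.1 (-0.457 to 0.702, median 0.024). Of 180 pairs with other numbers 37 did (-0.395 to 0.329, median -0.011). Raw depth is unknown, so no counting error is given.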
